A study of Mus musculus with 4 samples.

Results

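The 38 genes described here encode chaperones and the sensors, regulators and targets of the unfolded protein response, and they were followed across the hormone cells of the mouse pituitary. They were taken by symbol, and all 38 were found among the 55357 gene identifiers of the matrix. Ddit3 has 2 identifiers, with 37813 and 0 UMIs (unique molecular identifiers, each standing for 1 captured RNA molecule), and the one with 37813 was used. By role they fall into 15 ER folding members, 3 ER quality control members, 8 members for UPR signalling and ATF4 targets, 10 cytosolic heat shock members and 2 mitochondrial chaperone members.

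Male mice entered the study at 4 weeks of age, and pituitaries were taken from mice given a high-fat diet (HFD) for 12 weeks or a normal diet (ND). There were 2 HFD and 2 ND libraries, each from 3 pooled pituitaries, so single animals cannot be told apart. The tissue was digested with enzymes at 37 °C for 1 h before single-cell 3′ libraries were made on the 10x Genomics platform; the labels give no strain, allele or drug. The labels also give the cell line name Lbt2 and the cell type gonadotroph for each library, whereas gonadotroph-like cells made up 718 of the 35586 kept cells (2.02%) and the hormone genes of the other pituitary lineages were all present.

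The deposited matrix pools the 4 libraries. Barcodes carry a suffix from 1 to 4, but nothing ties a suffix to a library or a diet, so HFD and ND were not compared and the matrix counts as 1 sample. The 4 suffixes are called sets 1 to 4 below, and values in the sets are shown as a range, not as replicates, with no p-value. The sets held 81621358 to 92665029 UMIs in 9929 to 10212 barcodes, with medians of 7167 to 8070.5 UMIs per barcode, and 156 barcode sequences occurred in more than 1 set. Of the kept cells, 25692 (72.2%) fell into 6 hormone classes named from marker genes: 13017 somatotroph-like (growth hormone), 7921 lactotroph-like (prolactin), 2473 corticotroph-like and 691 melanotroph-like (both Pomc), 718 gonadotroph-like (Lhb and Fshb) and 872 thyrotroph-like cells (Tshb). None of the 38 genes was used in the clustering.

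Secretory proteins fold in the endoplasmic reticulum (ER) with the help of BiP (Hspa5), GRP94 (Hsp90b1), the lectin chaperones calnexin and calreticulin, and protein disulfide isomerases. When unfolded protein builds up, the sensors IRE1 (Ern1), ATF6 and PERK start the unfolded protein response (UPR), which raises ER chaperones through XBP1 and ATF6 and amino acid and stress genes through ATF4. The cytosol and nucleus have a separate system, the heat shock response, in which HSF1 raises Hsp70, Hsp90 and their J-domain partners.

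The promoters of the members differ in a way that follows this division in part, and those with the clearest motif matches are shown here. The ER stress response element (CCAAT and CCACG with any 9 bases between them, both strands searched) was present from 250 bases before to 50 bases after the start of 7 of the 13 ER folding members that matched the RefSeq promoter table (build GRCm38.p6), or 53.8%, against 37 of 27025 genes (0.137%). None of the members of the other groups with a promoter held it. No promoter was listed for Manf, Hyou1, Atf6, Hspa8, Hsp90aa1 and Hsp90ab1. The matches were:
Calr: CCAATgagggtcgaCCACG
Canx: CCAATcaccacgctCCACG
Creld2: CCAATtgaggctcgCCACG
Dnajc3: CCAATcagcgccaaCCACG
Hsp90b1, upstream match: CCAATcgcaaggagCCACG
Hsp90b1, downstream match: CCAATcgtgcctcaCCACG
Hspa5: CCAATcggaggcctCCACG
Pdia6: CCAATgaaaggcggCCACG
Each is written in the direction of the motif, with its fixed letters in capitals. Hsp90b1 was the member with 2 matches, 1 on each strand, and Hspa5 had 1. Their whole windows follow, at chr10:86705395-86705694 on the minus strand for Hsp90b1 and chr2:34771840-34772139 on the plus strand for Hspa5, with the ER stress response element in capitals (CGTGG and ATTGG on the opposite strand):
Hsp90b1: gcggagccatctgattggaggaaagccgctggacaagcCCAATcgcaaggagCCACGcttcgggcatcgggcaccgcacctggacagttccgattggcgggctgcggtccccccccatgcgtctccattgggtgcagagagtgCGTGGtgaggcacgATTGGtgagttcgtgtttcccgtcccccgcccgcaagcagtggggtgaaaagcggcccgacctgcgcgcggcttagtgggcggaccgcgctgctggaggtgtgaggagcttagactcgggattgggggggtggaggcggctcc
Hspa5: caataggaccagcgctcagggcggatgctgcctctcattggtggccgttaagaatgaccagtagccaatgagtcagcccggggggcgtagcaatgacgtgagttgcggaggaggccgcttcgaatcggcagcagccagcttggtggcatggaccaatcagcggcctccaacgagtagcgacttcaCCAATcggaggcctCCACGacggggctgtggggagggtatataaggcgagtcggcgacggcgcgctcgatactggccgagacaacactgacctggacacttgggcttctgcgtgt

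The heat shock element was searched as 3 alternating units, GAA, TTC and GAA with any 2 bases between neighbours, on both strands. It was present in 1 of 7 cytosolic heat shock members with a promoter (Hsph1) and in both mitochondrial chaperone members (Hspe1 and Hspd1, which share 1 promoter region between divergent starts), against 179 of 27025 genes (0.662%) and 0 of 13 ER folding members. A shorter form had 2 units, GAA and TTC in either order, with any 2 bases between them. It was present in 6 of the 7 cytosolic members and 0 of the 13 ER folding members, against 17.0% of genes. Both mitochondrial members and Asns also held it. The amino acid response element (TGATG, any base, then AA, both strands) was found in 3 of 7 members for UPR signalling and ATF4 targets (Asns, Chac1 and Trib3) and in Herpud1, against 4.51% of genes. The windows of Hspe1 (chr1:55087898-55088197, plus strand) and Hsph1 (chr5:149636287-149636586, minus strand) are shown with the units of the 3-unit element in capitals; in Hspe1 2 matches overlap in a run of 4 units:
Hspe1: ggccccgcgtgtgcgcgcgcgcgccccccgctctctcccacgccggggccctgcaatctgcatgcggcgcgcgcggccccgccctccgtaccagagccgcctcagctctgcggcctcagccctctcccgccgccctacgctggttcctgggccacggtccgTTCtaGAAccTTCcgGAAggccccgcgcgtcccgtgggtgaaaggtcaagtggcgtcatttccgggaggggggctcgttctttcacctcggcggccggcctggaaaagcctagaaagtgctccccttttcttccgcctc
Hsph1: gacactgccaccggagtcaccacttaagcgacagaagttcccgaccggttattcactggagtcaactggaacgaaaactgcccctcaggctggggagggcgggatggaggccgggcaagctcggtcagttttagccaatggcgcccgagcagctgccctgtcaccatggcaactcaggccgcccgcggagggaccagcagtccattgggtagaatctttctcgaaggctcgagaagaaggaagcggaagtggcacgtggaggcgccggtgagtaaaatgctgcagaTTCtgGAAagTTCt

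Levels are given as CPM, the UMIs of a gene per 1000000 UMIs of the class, first with all genes in the library size and then as non-hormone CPM, without 7 hormone genes (Gh, Prl, Pomc, Cga, Fshb, Lhb and Tshb) in the library size. The choice matters because these 7 genes took 44.5% of the UMIs of somatotroph-like cells, 22.2% of lactotroph-like, 20.9% of melanotroph-like, 14.02% of gonadotroph-like, 11.4% of thyrotroph-like and 7.72% of corticotroph-like cells. Leaving them out multiplied every other gene of a class by one factor, from 1.80 in somatotroph-like down to 1.08 in corticotroph-like cells. A gene was called higher (or lower) in a class when its CPM was at least 1.5 times above (or below) the mean CPM of the other 5 hormone classes, in the same direction in each of the 4 sets. Levels are counts of transcript ends and are compared between classes for 1 gene, not between genes.

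**Figure D1:**
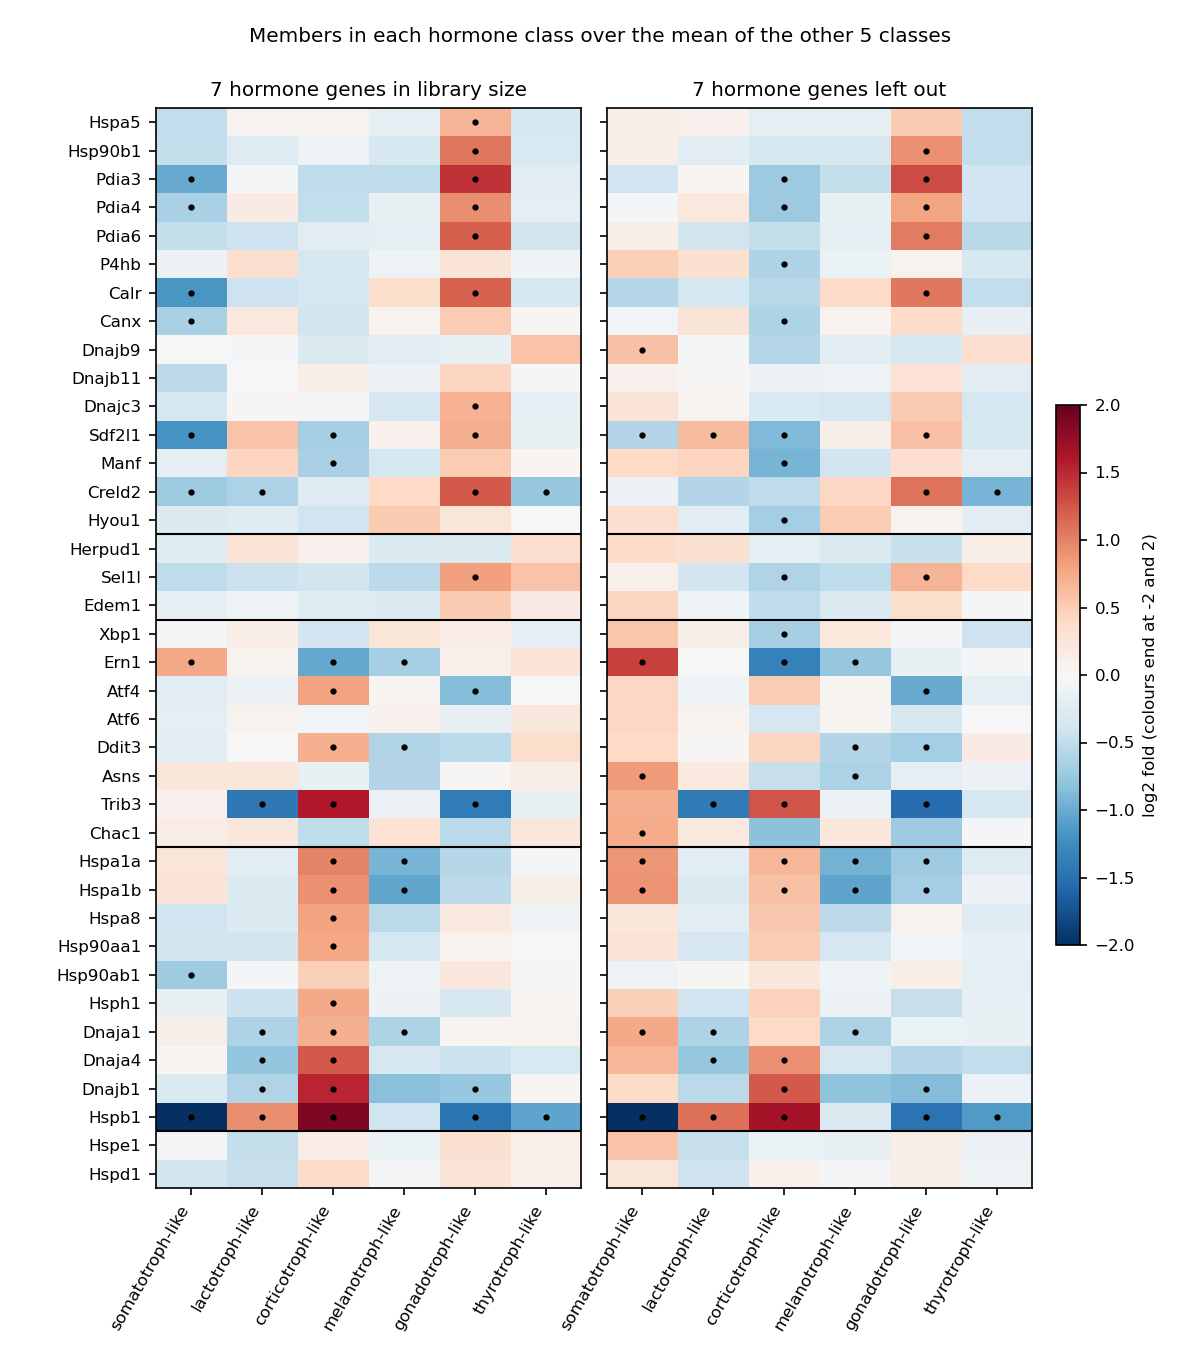
Log2 ratio of each member's level in a hormone class over the mean of the other 5 hormone classes, with hormone genes in the library size (left) and left out (right); rows are the 38 members grouped by role, columns are classes, and a dot marks a call. The gonadotroph-like column is highest for most ER folding members in both panels, and the corticotroph-like column for most cytosolic heat shock members.

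ER folding members were highest in gonadotroph-like cells. Together the 15 genes took 7882 CPM there (exact Poisson 95% interval 7827 to 7937, which covers counting error only), against 4814 in lactotroph-like, 4515 in melanotroph-like, 4376 in thyrotroph-like, 4254 in corticotroph-like and 3488 in somatotroph-like cells. The gonadotroph-like values in sets 1 to 4 were 7311, 8394, 6975 and 7708 CPM, and the highest value of any other hormone class in any set was 5093 CPM, so the ranges did not overlap. The summed level was 1.84 times the mean of the other 5 classes. Without hormone genes it was 1.65 times, with 9168 non-hormone CPM (8150 to 9693 over the sets) against 4610 to 6280 in the other classes.

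In gonadotroph-like cells 9 of the 15 ER folding members were called higher and 0 lower. By the same rule 11.2% of the 21946 genes tested were called higher and 20.6% lower. Without hormone genes 7 were called higher and 0 lower, against 9.28% and 24.2% of 21939 genes. The members called under both were Hsp90b1, Pdia3, Pdia4, Pdia6, Calr, Sdf2l1 and Creld2, and Hspa5 and Dnajc3 were called with hormone genes in only. The median member stood at 1.61 times the other classes with hormone genes in and 1.44 times without, while the median of all genes tested was 0.949 and 0.865. Gonadotroph-like cells also had the most UMIs per cell, with a median of 14783 against 6414.5 to 10067 in the other hormone classes. Every class was then thinned to 6108962 UMIs in all, the smallest total of the 6 classes. The counts were 9 with hormone genes in and 6 without, against 12.7% and 10.5% of genes. This thinning evened the class totals and kept the expected ratios, so it does not address the UMIs per cell.

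Pdia3, a disulfide isomerase that works on glycoproteins bound to calnexin and calreticulin, showed the widest gap. It had 1000, 1249, 1049 and 1162 CPM in sets 1 to 4 of gonadotroph-like cells, against 278 to 612 CPM over all sets of the other hormone classes. The pooled ratio was 2.71 with hormone genes in and 2.47 without, and no set of another class reached the gonadotroph-like range. Creld2, a small ER protein induced in the UPR, had 92.5, 102, 74.0 and 88.6 CPM in gonadotroph-like cells, against 27.6 to 78.1 CPM in the sets of the other classes. Melanotroph-like set 1 lay above gonadotroph-like set 3, so the ranges overlapped, and the pooled ratio was 2.35 with hormone genes in and 2.11 without. At the other end, thyrotroph-like cells had 35.8, 29.7, 28.2 and 30.2 CPM of Creld2, which was 0.592 of the other classes with hormone genes in and 0.527 without, a lower call under both.

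The chaperones that name the compartment shared the top class, while the class after it differed between them. Calreticulin (Calr), the soluble lectin chaperone, had 1099, 1293, 1009 and 1110 CPM in the sets of gonadotroph-like cells, and the next class, melanotroph-like, had 910, 641, 610 and 718 CPM. Hsp90b1, the ER member of the Hsp90 family, had 1481, 1650, 1309 and 1485 CPM in gonadotroph-like cells, against 817 CPM in corticotroph-like cells, the next class with hormone genes in. Hspa5, the ER Hsp70, had 1096, 1386, 1129 and 1335 CPM in gonadotroph-like cells, against 929 CPM in corticotroph-like and 922 CPM in lactotroph-like cells. With hormone genes in, no set of another class went above 1039 CPM. Without them the ranges overlapped, with 1298, 1600, 1320 and 1559 non-hormone CPM in gonadotroph-like cells against 1363 in set 4 of somatotroph-like and 1352 in set 4 of lactotroph-like cells, and the pooled ratio of 1.44 was not called. The membrane-bound lectin chaperone Canx separated the classes less: it stood at 1.42 times the other classes in gonadotroph-like cells with hormone genes in and 1.29 times without, and was not called higher in any class.

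Of the 7 ER folding members with the ER stress response element, 6 were called higher in gonadotroph-like cells with hormone genes in and 4 without, with median ratios of 2.11 and 1.89. Of the 6 members with a promoter that lacked the element, 3 were called under each scaling, with median ratios of 1.496 and 1.36. Over all genes 11.2% were called higher with hormone genes in and 9.28% without. Without hormone genes, 4 of 7 and 3 of 6 were thus called, so the count hardly separated the 2 groups. These are descriptions of small groups, and no test was made.

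Members outside this pattern peaked in other classes. P4hb, the isomerase subunit of prolyl hydroxylase, had its highest level in lactotroph-like cells at 284 CPM, next to 274 CPM in gonadotroph-like cells. Without hormone genes somatotroph-like cells led for P4hb, with 399 non-hormone CPM against 365 in lactotroph-like cells. Dnajb9, a J-domain protein that brings Hspa5 to IRE1, had 254 CPM in thyrotroph-like cells, which led in each of the 4 sets, against 156 to 184 CPM in the other classes. Without hormone genes the order changed, and somatotroph-like cells led with 331 against 169 to 287 in the other classes, a ratio of 1.51 that was called. Hyou1, a large Hsp70-like ER chaperone, had 89.2 CPM in melanotroph-like cells against 52.3 to 75.9 CPM, and was not called in that class.

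**Figure D2:**
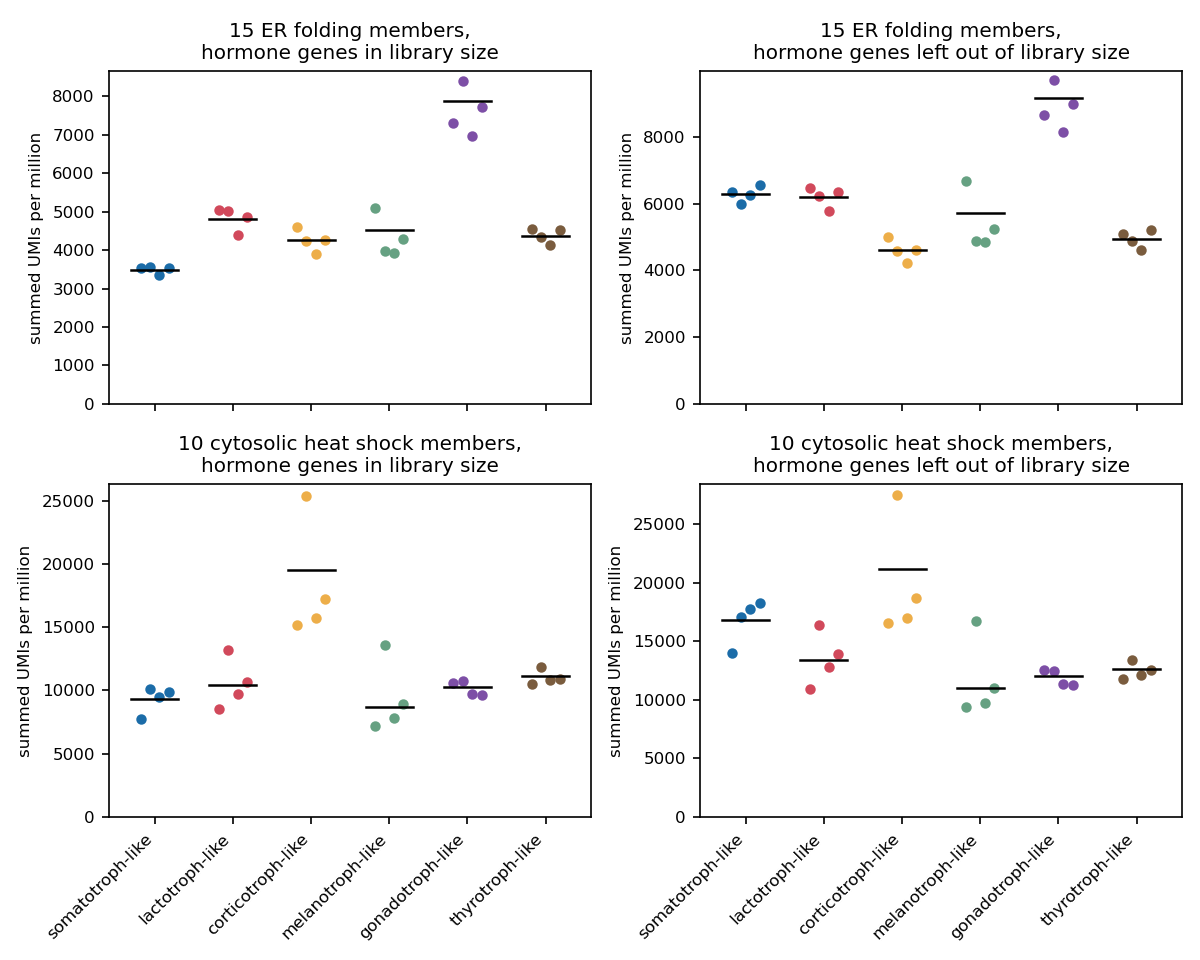
Summed CPM of the 15 ER folding members (top) and the 10 cytosolic heat shock members (bottom) in each hormone class, with hormone genes in the library size (left) or left out (right). Points are sets 1 to 4 and the line is the pooled value; ER folding is highest in gonadotroph-like cells in every set, and the heat shock members are highest in corticotroph-like cells when pooled, with set 2 far above the others.

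Somatotroph-like cells show how much rests on the hormone genes. With hormone genes in, 0 of the 15 ER folding members were called higher there and 6 lower, where 5.21% of all genes were called higher and 48.9% lower. Without hormone genes 1 was called higher and 1 lower, against 12.5% and 21.2% of genes. The lower share of members was thus near the share of all genes in the one case and below it in the other. Sdf2l1, a partner of ER J-domain proteins, was the member called lower under both: it had 54.2, 46.4, 51.2 and 38.4 CPM in somatotroph-like cells against 50.8 to 170 CPM in the sets of the other classes. The ratio was 0.442 with hormone genes in and 0.665 without, and the lowest set of corticotroph-like cells, at 50.8 CPM, lay inside the somatotroph-like range. The soluble chaperone Calr, which was lower with hormone genes in at 0.445, stood at 0.676 without them and was no longer called.

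Corticotroph-like cells, which secrete the Pomc product ACTH, went the other way when hormone genes were left out. With hormone genes in, 0 of the 15 ER folding members were called higher and 2 lower (Sdf2l1 and Manf), against 15.4% and 18.4% of genes. Without them 0 were called higher and 7 lower, against 10.2% and 24.0% of genes: Pdia3, Pdia4, Canx, Sdf2l1, Manf, P4hb and Hyou1. With doublets kept 3 were called lower without hormone genes, near the 21.3% of all genes. The median member was at 0.791 and 0.672 of the other classes, and the median of all genes tested was at 1.06 and 0.883. Manf, a secreted ER-resident trophic factor released under ER stress, had 287, 237, 236 and 250 CPM in corticotroph-like cells, against 492 CPM in gonadotroph-like and 472 CPM in lactotroph-like cells. The same-strand neighbour Rbm15b overlaps Manf and had 7222 UMIs in all, against 120095 for Manf.

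The 3 remaining classes showed few calls among ER folding members. In lactotroph-like cells 0 were called higher and 1 lower with hormone genes in (Creld2), against 8.32% and 24.9% of genes, and 1 higher and 0 lower without (Sdf2l1, at 1.55 times), against 8.62% and 24.0%. In melanotroph-like cells none of the 15 was called under either scaling, against 10.3% higher and 18.1% lower of all genes with hormone genes in and 10.7% and 18.1% without. In thyrotroph-like cells 0 were called higher and 1 lower under each scaling (Creld2), against 10.8% and 12.7% of genes with hormone genes in and 7.24% and 15.2% without.

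ER quality control members remove proteins that fail to fold. Sel1l, the adaptor of the HRD1 ubiquitin ligase, had 131, 148, 141 and 146 CPM in gonadotroph-like cells, where it was called higher at 1.77 times the other classes with hormone genes in and 1.61 times without. Thyrotroph-like cells came next with 111, 130, 132 and 131 CPM, so neighbouring classes overlapped, and the other 4 classes had 67.6 to 74.1 CPM. In non-hormone CPM somatotroph-like cells came closer, with 110, 119, 126 and 135 against 125, 146, 148 and 150 in thyrotroph-like cells. Herpud1, which helps assemble that ligase, was at 135 to 194 CPM over the hormone classes with hormone genes in. Its non-hormone CPM in sets 1 to 4 was 247, 197, 267 and 296 in somatotroph-like cells, against 176, 135, 194 and 168 in gonadotroph-like cells. Edem1, which marks glycoproteins for disposal, was at 9.57 to 15.1 CPM, below the 59.4 CPM of T or NK cells and the 60.6 CPM of macrophages or microglia.

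The sensors and ATF4 targets act upstream of the chaperones or in a separate branch of the response. In gonadotroph-like cells 0 of the 8 members for UPR signalling and ATF4 targets were called higher and 2 lower (Atf4 and Trib3), and without hormone genes 0 and 3, with Ddit3 added. Over all genes 11.2% were higher and 20.6% lower, and 9.28% and 24.2% without hormone genes, so the counts of so few members lay near the background. Atf4, the transcription factor whose translation rises when eIF2α is phosphorylated, had 160, 148, 193 and 173 CPM in gonadotroph-like cells, which was 0.547 of the other classes with hormone genes in and 0.498 without. In corticotroph-like cells it had 400, 389, 473 and 482 CPM, and no set of another class went above 320 CPM with hormone genes in. Without them corticotroph-like cells had 434, 421, 512 and 522 non-hormone CPM against 418, 348, 486 and 513 in somatotroph-like cells. The ranges thus overlapped. The pooled Atf4 ratio was below 1.5, so no call was made in corticotroph-like cells. These are RNA levels and do not show how much ATF4 protein was made.

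Trib3, an ATF4 and CHOP target, was rare. It had 14.8, 12.9, 7.57 and 16.3 CPM in corticotroph-like cells from 253 UMIs in all, against 0, 2.44, 4.15 and 2.16 CPM in gonadotroph-like cells from 24 UMIs and 1.99, 1.95, 2.22 and 3.36 CPM in lactotroph-like cells. The corticotroph-like level was 3.03 times the other classes with hormone genes in and 2.39 times without, and it was called higher under both. Melanotroph-like cells had 10.7 CPM in set 2 and thyrotroph-like cells 11.1 CPM in set 4, both above the corticotroph-like level in set 3. The lower calls in gonadotroph-like (0.379 and 0.347) and lactotroph-like cells (0.369 and 0.376) rest on few molecules. After thinning to equal sums the lactotroph-like ratios were 0.583 and 0.595. The share of gonadotroph-like cells with a Trib3 UMI at 2000 non-hormone UMIs per cell was 0.324%, against 0.410% of T or NK cells, so it cannot be told from background.

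Ern1, which encodes the sensor IRE1, was the one member of its group called higher in somatotroph-like cells under both scalings. It had 48.2, 43.5, 43.5 and 45.4 CPM there, against 13.6 to 40.6 CPM in the sets of the other classes, so the ranges did not overlap. The ratio was 1.70 with hormone genes in and 2.57 without. It was lower in corticotroph-like cells, with 18.5, 13.6, 16.2 and 17.3 CPM and ratios of 0.493 and 0.390, and in melanotroph-like cells, with 21.1, 19.4, 15.3 and 21.4 CPM and ratios of 0.631 and 0.589. Under both scalings corticotroph-like cells were thus called higher for Trib3 and lower for Ern1.

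Over the 8 members, 3 were called higher and 1 lower in corticotroph-like cells with hormone genes in (Atf4, Ddit3 and Trib3 higher, Ern1 lower), and 1 and 2 without (Trib3 higher, Ern1 and Xbp1 lower). Over all genes the shares were 15.4% and 18.4%, and 10.2% and 24.0% without hormone genes, where 1 and 2 of 8 are near the background. In somatotroph-like cells 1 was called higher and 0 lower with hormone genes in, and 3 and 0 without (Ern1, asparagine synthetase Asns and the glutathione-degrading enzyme Chac1), against 5.21% and 48.9% of genes with them in and 12.5% and 21.2% without. In melanotroph-like cells 0 were called higher and 2 lower, against 10.3% and 18.1% of genes, and 0 and 3 without hormone genes, against 10.7% and 18.1%. In lactotroph-like cells 0 were higher and 1 lower under each scaling, against 8.32% and 24.9% of genes with hormone genes in and 8.62% and 24.0% without. In thyrotroph-like cells none was called, against 10.8% higher and 12.7% lower of all genes with hormone genes in and 7.24% and 15.2% without. Xbp1, whose mRNA IRE1 splices, ranged from 114 CPM in corticotroph-like to 163 CPM in melanotroph-like cells, and without hormone genes somatotroph-like cells led with 249.7 non-hormone CPM; spliced and unspliced forms were not separated. Atf6 ranged from 33.5 to 42.7 CPM.

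Cytosolic heat shock members were highest in corticotroph-like cells. The 10 genes together took 19503 CPM there (19442 to 19565), against 11162 in thyrotroph-like, 10400 in lactotroph-like, 10301 in gonadotroph-like, 9334 in somatotroph-like and 8725 in melanotroph-like cells. The values in sets 1 to 4 of corticotroph-like cells were 15194, 25395, 15704 and 17227 CPM, and the highest set of another hormone class was melanotroph-like set 2 at 13577 CPM. Set 2 stood well above the other sets in corticotroph-like cells. Without hormone genes the level was 21136, against 16806 in somatotroph-like cells, whose sets reached 18270 and so overlapped the corticotroph-like range of 16508 to 27488. The summed ratio to the other classes was 1.95 with hormone genes in and 1.61 without, and 1.70 and 1.38 without set 2.

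With hormone genes in, 9 of the 10 were called higher in corticotroph-like cells and 0 lower, all but Hsp90ab1. The same direction held 15.4% of all genes. Without hormone genes 5 were called higher (Hspb1, Dnajb1, Dnaja4, Hspa1a and Hspa1b), against 10.2% of genes. Both counts rested in part on set 2: without it they were 5 and 3, against 17.2% and 11.2% of genes. With doublets kept, or with classes set by a marker score per cell, the count without hormone genes was also 3. The shares of all genes were then 9.67% and 10.2%. The median ratio of the 10 was 1.82 with hormone genes in and 1.48 without, beside 1.06 and 0.883 for all genes. Corticotroph-like cells had a median of 7339 UMIs and a median mitochondrial share of 1.59%, against 0.71% to 2.55% in the clusters of the other hormone classes.

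Hspb1, the small heat shock protein HSP27, had the widest range of any member. It had 1736, 2685, 1685 and 2024 CPM in corticotroph-like cells, and the ratio to the other classes was 3.66 with hormone genes in and 3.16 without. Lactotroph-like cells had 996, 1910, 1299 and 1480 CPM, also called higher at 1.91 and 2.14 times. Somatotroph-like cells had 46.4, 101, 69.3 and 65.9 CPM, which was 0.0715 of the other classes with hormone genes in and 0.110 without. Gonadotroph-like cells with 275 to 386 CPM (0.365 and 0.358) and thyrotroph-like cells with 364 to 556 CPM (0.480 and 0.456) were called lower too. The thyrotroph-like ratios were 0.312 and 0.303 at a coarser clustering and 0.231 and 0.274 with classes set by marker score. Outside the hormone cells Hspb1 reached 2917 CPM in endothelial cells and 2469 CPM in stem or folliculostellate cells, against 47.0 CPM in T or NK cells.

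Seen per cell, the same gene divided the classes. Each cell with at least 2000 non-hormone UMIs was thinned to 2000, and cells below that were left out. This dropped 230 of 474 T or NK cells, 729 of 13017 somatotroph-like, 346 of 7921 lactotroph-like and 47 of 2473 corticotroph-like cells. An Hspb1 UMI was then found in 71.0% of corticotroph-like and 67.7% of lactotroph-like cells. The share was 12.0% in somatotroph-like cells (exact Clopper-Pearson 95% interval 11.4% to 12.5%). T or NK cells had 8.20% (5.08% to 12.4%), an interval that reaches the somatotroph-like share, and free RNA was not measured. The unthinned shares were 81.5%, 83.3%, 25.6% and 8.65%, and the median depths 7339, 7062, 10067 and 2106 UMIs.

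Dnajb1, the J-domain partner of Hsp70 that also restrains HSF1, had 3376, 4739, 3630 and 3537 CPM in corticotroph-like cells, against at most 2255 CPM in any set of another class. The ratio was 2.88 with hormone genes in and 2.34 without. At 2000 non-hormone UMIs, 90.0% of corticotroph-like cells had a Dnajb1 UMI, against 61.6% to 75.2% in the other hormone classes and 54.9% of T or NK cells (48.4% to 61.3%). The lowest share, in lactotroph-like cells, is thus close to that of T or NK cells, and free RNA was not measured. Unthinned, the shares were 96.8% of corticotroph-like cells, 78.3% to 87.7% in the other hormone classes and 54.6% of T or NK cells, at medians of 7339, 6414.5 to 14783 and 2106 UMIs. Dnaja4, another J-domain gene, had 223, 393, 229 and 303 CPM in corticotroph-like cells and a ratio of 2.35 and 1.88. In lactotroph-like cells it had 76.7, 128, 81.8 and 120 CPM and was called lower at 0.584 and 0.593. Dnaja1, the abundant J-domain protein, was also lower in lactotroph-like cells, with 398, 575, 396 and 434 CPM (0.650 and 0.654), and in melanotroph-like cells, with 394, 624, 469 and 410 CPM (0.653 and 0.645).

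Hspa1a and Hspa1b, the stress-inducible Hsp70 genes, had their lowest pooled levels in melanotroph-like cells of the intermediate lobe. Hspa1a had 479, 1745, 658 and 935 CPM and Hspa1b 154, 715, 308 and 435 CPM there, and the spread between sets was wide. The order was not the same in every set: in set 2 gonadotroph-like cells were lower, with 1034 CPM of Hspa1a and 503 CPM of Hspa1b, and in set 4 they had 422 CPM of Hspa1b. The ratios of melanotroph-like cells were 0.528 and 0.518 for Hspa1a and 0.489 and 0.480 for Hspa1b, all called lower. In corticotroph-like cells Hspa1a had 1465, 3659, 1734 and 2023 CPM and Hspa1b 501, 1561, 758 and 955 CPM, called higher at 1.99 and 1.58 times for Hspa1a and 1.89 and 1.504 times for Hspa1b. Somatotroph-like cells had the highest pooled level of both once hormone genes were left out, at 1.84 times for Hspa1a and 1.87 times for Hspa1b, although corticotroph-like cells were higher in set 2. The 2 genes are near-identical copies: in the GENCODE vM21 annotation 61.1% of the 41-base windows of the Hspa1a transcript also occur in Hspa1b, but 0% of those in the last 400 bases, the end that 3′ libraries read.

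In gonadotroph-like cells 0 of the 10 were called higher and 2 lower, near the 11.2% and 20.6% of all genes, and 0 and 4 without hormone genes, against 9.28% and 24.2%. In melanotroph-like cells 0 were higher and 3 lower under each scaling, against 10.3% and 18.1% of genes with hormone genes in and 10.7% and 18.1% without. In lactotroph-like cells 1 was called higher and 3 lower, against 8.32% and 24.9%, and 1 and 2 without hormone genes, against 8.62% and 24.0%. In thyrotroph-like cells 0 were higher and 1 lower under each scaling, against 10.8% and 12.7% with hormone genes in and 7.24% and 15.2% without. In somatotroph-like cells 0 were higher and 2 lower, against 5.21% and 48.9%. Without hormone genes 3 were higher and 1 lower there, against 12.5% and 21.2%. With classes set by marker score 0 were higher in somatotroph-like cells without hormone genes, against 10.1%. The constitutive Hsp90ab1 ranged from 1777 CPM in somatotroph-like to 3553 CPM in corticotroph-like cells with hormone genes in and from 3018 to 3850 non-hormone CPM without. The mitochondrial pair Hspd1 and Hspe1, which form the matrix chaperonin, was not called in any class. Hspe1 was highest in gonadotroph-like cells at 622 CPM and lowest in lactotroph-like cells at 396 CPM with hormone genes in. Hspd1 had 292 CPM in corticotroph-like cells, its top class, and 181.8 CPM in lactotroph-like cells, its bottom class. Without hormone genes somatotroph-like cells led for both, with 924 non-hormone CPM of Hspe1 against 724 in gonadotroph-like cells, and 344 of Hspd1 against 322 in gonadotroph-like and 317 in corticotroph-like cells.

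Other genes of the same pathways were counted in the same way. Over all genes, 11.2% were called higher and 20.6% lower in gonadotroph-like cells (9.28% and 24.2% without hormone genes), and 15.4% and 18.4% in corticotroph-like cells (10.2% and 24.0% without). Of 25 genes for ER translocation and early glycosylation, 6 were called higher and 0 lower in gonadotroph-like cells (3 and 1 without hormone genes, where the higher count is near the background). In corticotroph-like cells 0 were called higher and 6 lower (0 and 13 without), and the 6 are near the background. There the lowest was Ssr4, a subunit of the translocon-associated complex, with 245 CPM against 770 CPM in gonadotroph-like cells and a ratio of 0.501, and the highest was Spcs1, a signal peptidase subunit, at 1.15 times. Of 21 other ER folding genes, 7 were called higher and 0 lower in gonadotroph-like cells (5 and 1 without): Fkbp2, an ER prolyl isomerase, had 525 CPM against 157 to 273 CPM in the other classes, and the oxidase Ero1b was lowest with a ratio of 0.716. Of 8 cytosolic chaperonin genes, 5 were higher and 0 lower in gonadotroph-like cells (1 and 0 without), with Cct5 highest at 1.69 times and Cct4 lowest at 1.30 times.

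Among 20 other PERK and ATF4 genes, 8 were called higher and 3 lower in corticotroph-like cells (6 and 6 without hormone genes), against 15.4% and 18.4% of all genes (10.2% and 24.0% without), so the lower counts are near the background. Sesn2, a stress-induced regulator of mTORC1, had 64.2 CPM there against 4.98 to 17.5 CPM, the highest of the list, and Nupr1 was the lowest at 0.970 CPM. In gonadotroph-like cells 5 were higher and 6 lower (5 and 7 without), against 11.2% and 20.6% of all genes (9.28% and 24.2% without), and Nupr1 was the highest with 102 CPM against 0.634 to 30.3 CPM. Of 22 other heat shock genes, 4 were higher and 1 lower in corticotroph-like cells (2 and 1 without), the higher counts being near the background, with Hspb8 lowest at a ratio of 0.410. Among 14 other ER quality control genes, 1 was higher and 0 lower in gonadotroph-like cells (0 and 1 without), with Derl3 highest at 1.67 times and Syvn1 lowest at 0.720. Of 6 other mitochondrial chaperones, 0 were higher and 1 lower in somatotroph-like cells (1 and 0 without), against 5.21% and 48.9% of all genes (12.5% and 21.2% without), with Dnaja3 highest at 1.04 times and Lonp1 lowest at 0.542.

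Cells within a class also differed. The cells of each class and set were cut into 5 equal parts by the share of their UMIs from all 7 hormone genes together. Members were summed as non-hormone CPM. These 7 genes also took 5.05% of the UMIs of T or NK cells and 9.47% in stem or folliculostellate cells, against 7.72% in corticotroph-like cells. Free RNA was not measured, and how much of the share was a class's own hormone was not tested. ER folding members were higher in the part with the highest share than in the part with the lowest in 5 of the 6 classes. Melanotroph-like cells had 6947 in the top part against 4674 in the bottom part, a ratio of 1.49 with 1.42 to 1.503 over the sets. The ratios were 1.34 in gonadotroph-like, 1.31 in corticotroph-like, 1.198 in somatotroph-like and 1.201 in thyrotroph-like cells, each above 1 in all 4 sets. Lactotroph-like cells went the other way, with 5952 against 6769 and a ratio of 0.879 (0.825 to 0.941 over the sets).

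**Figure D3:**
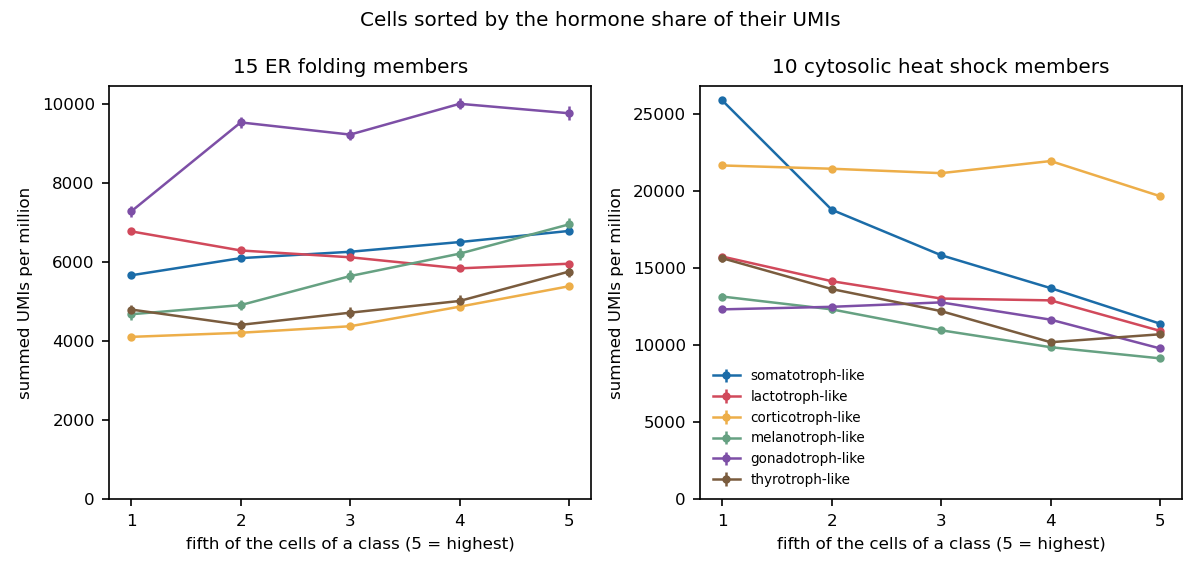
Summed non-hormone CPM of the 15 ER folding members (left) and the 10 cytosolic heat shock members (right) in 5 equal parts of the cells of each hormone class, ordered by the hormone share of a cell; lines are classes and bars are exact Poisson 95% intervals. ER folding is higher in part 5 than in part 1 except in lactotroph-like cells, and heat shock members are lower in part 5, most of all in somatotroph-like cells.

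The cytosolic heat shock members were lower in the top part of every class. Somatotroph-like cells had 11392 in the top part against 25895 in the bottom part, a ratio of 0.440 (0.374 to 0.623 over the sets). The ratios were 0.684 in thyrotroph-like, 0.694 in lactotroph-like, 0.695 in melanotroph-like, 0.794 in gonadotroph-like and 0.908 in corticotroph-like cells, and in gonadotroph-like and corticotroph-like cells at least 1 set lay above 1. Depth moved with this sort: somatotroph-like cells had a median of 14030 UMIs in the top part against 6845 in the bottom part, and gonadotroph-like cells 7252 against 11403. The part of depth in these ratios was not tested.

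Single ER folding members did not move alike in this sort. Pdia3 stood at 1.75 times in the top over the bottom part of melanotroph-like cells, 1.64 in gonadotroph-like, 1.56 in corticotroph-like, 1.56 in thyrotroph-like and 1.23 in somatotroph-like cells, against 0.777 in lactotroph-like cells. Calr followed it, with 1.92 in melanotroph-like and 0.867 in lactotroph-like cells. Hspa5 stayed closer to 1, between 0.770 in lactotroph-like and 1.19 in melanotroph-like cells. Atf4 was lower in the top part of each class, from 0.630 in thyrotroph-like to 0.814 in gonadotroph-like cells, and so was Ddit3, which encodes CHOP, from 0.545 in somatotroph-like to 0.815 in melanotroph-like cells. The ATF4 target Asns went the other way in each class, from 1.08 to 1.43.

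A second sort used the heat shock genes themselves. Cells of a class were cut into 5 parts by their share of Hspa1a and Hspa1b UMIs, and the 8 other cytosolic heat shock members were summed. In somatotroph-like cells these 8 had 22737 non-hormone CPM in the top part against 5794 in the bottom part, a ratio of 3.92 (3.44 to 4.66 over the sets). The ratio was 3.22 in thyrotroph-like, 3.14 in lactotroph-like, 2.84 in corticotroph-like, 2.18 in gonadotroph-like and 1.99 in melanotroph-like cells. ER folding members stood at 0.893 to 1.10 in the same sort. Leaving Hspb1 out of the 8, an alternative added after seeing the data, gave 1.86 to 3.92. Cells with no UMI of Hspa1a or Hspa1b tie at the bottom of this sort and were placed by their order in the matrix. Unthinned, an Hspa1a UMI was found in 69.6% of melanotroph-like and 75.4% of lactotroph-like cells, against 87.8% of somatotroph-like cells. The part of depth in this sort was not tested.

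**Figure D4:**
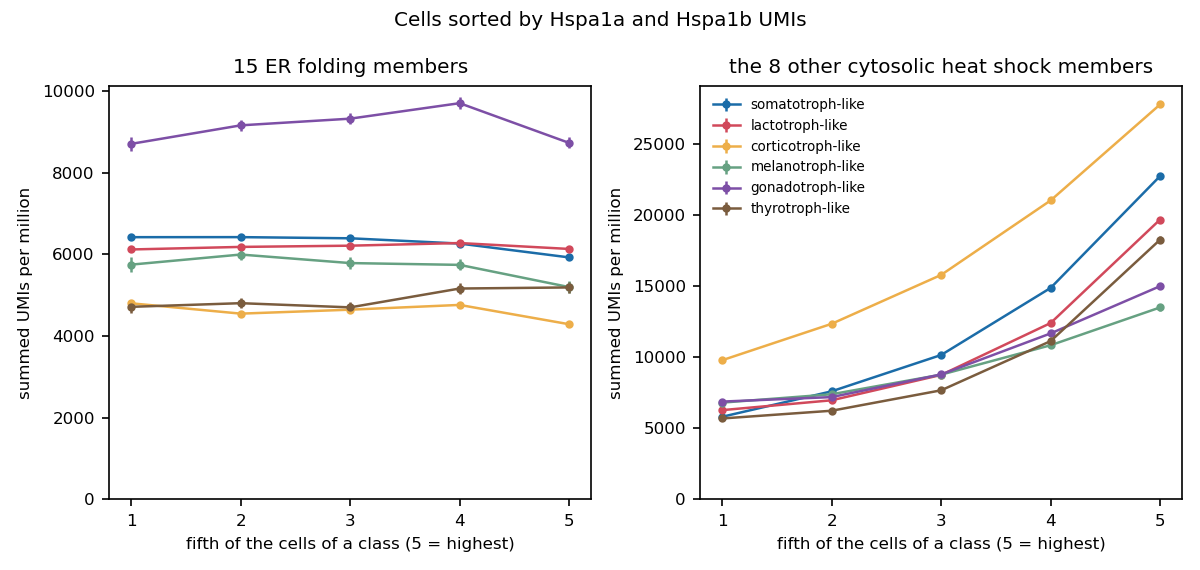
Summed non-hormone CPM of the 15 ER folding members (left) and the 8 cytosolic heat shock members other than Hspa1a and Hspa1b (right) in 5 equal parts of the cells of each hormone class, ordered by their Hspa1a and Hspa1b share; bars are exact Poisson 95% intervals. The 8 members climb in each class and the ER folding members stay nearly level.

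By gene, Dnajb1 was 10.6 times as high in the top as in the bottom part of somatotroph-like cells, Dnaja4 8.28 times, Dnaja1 4.35 times, Hsp90aa1 4.29 times and the constitutive Hsp90ab1 2.06 times. The mitochondrial Hspe1 was 3.34 times as high and Hspd1 1.95 times. Some UPR members moved too in somatotroph-like cells: Ddit3 stood at 2.20 times, Atf4 at 1.91 times, Hspa5 at 1.35 times and Herpud1 at 1.25 times, each above 1 in all 4 sets. The other 14 ER folding members stood between 0.729 and 0.952 in those cells. In corticotroph-like cells Atf4 stood at 0.929, Ddit3 at 0.927 and Hspa5 at 0.864, so the pattern of somatotroph-like cells was not seen there.

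The same contrast appeared between clusters of somatotroph-like cells, which were formed without the 38 genes. Other heat shock and ATF4 genes were not kept out of the clustering, so the clusters are not an independent repeat of that sort. Cluster 4 (1993 cells) had 31144 non-hormone CPM of cytosolic heat shock members, 2.28 times the rest of the class (2.18 to 2.60 over the sets). Cluster 11 (3004 cells) stood at 1.44 times, cluster 5 (3459 cells) at 0.682 and cluster 7 (4561 cells) at 0.353. ER folding members stood at 0.951, 0.998, 1.01 and 1.03 in that order. In cluster 4 Dnajb1 was at 3.70 times the rest, Dnaja4 at 3.59, Ddit3 at 2.48, Atf4 at 1.78, Herpud1 at 1.41 and Hspa5 at 1.39, while Pdia6 was at 0.771 and Dnajc3 at 0.792. Cluster 4 was led by the sterol synthesis genes Idi1, Hmgcs1, Lss and Cyp51 together with Egr2, Dnaja4 and Dnajb1, and held 279, 327, 765 and 622 cells of sets 1 to 4. Dnaja4 and Dnajb1 are members, and their rank in that list is a description only.

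**Figure D5:**
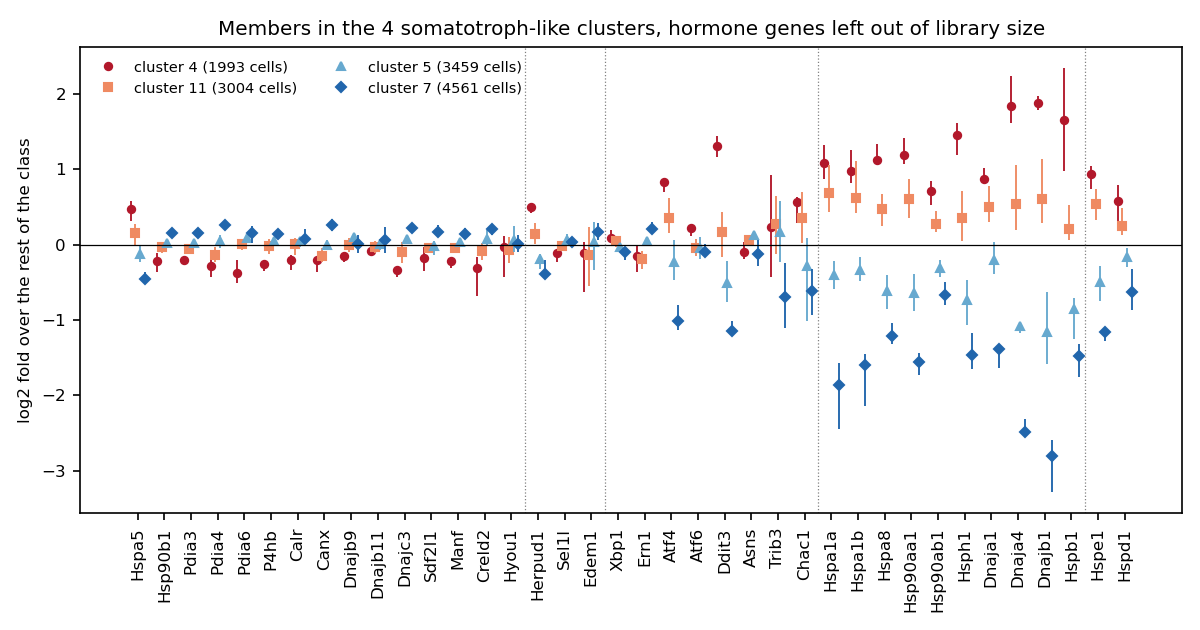
Log2 ratio of each member in each of 4 clusters of somatotroph-like cells over the rest of the class, from non-hormone CPM; markers are pooled values, lines the range over sets 1 to 4, and dotted lines part the groups of members. Summed cytosolic heat shock members run from a ratio of 2.28 in cluster 4 to 0.353 in cluster 7, while most ER folding members lie near 0 on the log2 axis.

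Lactotroph-like cells split likewise. Cluster 3 (4225 cells) had 16902 non-hormone CPM of cytosolic heat shock members against 7749 in cluster 0 (3696 cells), a ratio of 2.18, and the UPR and ATF4 group stood at 1.49 times. Dnajb1 was at 6.37 times, Dnaja4 at 4.33, Hspa1a at 3.01, Ddit3 at 2.18 and Atf4 at 1.95. ER folding members had 6052 against 6401, a ratio of 0.946 that crossed 1 among the sets (0.871 to 1.01).

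The sets differed for some members in every hormone class, and nothing in the files says whether that is diet, pool or handling. In non-hormone CPM, Hspa1a and Hspa1b were lowest in set 1 in 6 of 6 hormone classes, and Hspa1b was highest in set 2 in 6 of 6. Hspd1 was highest in set 2, Sdf2l1 highest in set 1 and Hsp90b1 lowest in set 3, each in 6 of 6. Hspa1b in somatotroph-like cells, for example, had 893, 1518, 1366 and 1480 non-hormone CPM in sets 1 to 4, and Sdf2l1 in lactotroph-like cells had 218, 177, 160 and 132. The 6 classes of a set share 1 barcode suffix, so they are not 6 separate observations.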

How the data were processed

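Single-cell 3′ RNA sequencing was done on 4 pools of mouse pituitaries. The deposited values are raw UMI counts per gene and barcode, written by Cell Ranger 8.0.1 per the file headers; the submitters' processing notes also name Seurat, and the genome build is not given in the sources used here. In all, the matrix held 40406 barcodes and 346690898 UMIs, and its lowest barcode had 486 UMIs. Barcodes under 500 UMIs, under 250 genes or over 25% mitochondrial UMIs were dropped (567 failed and 39839 passed). Scrublet, with an expected rate of 8%, then removed 4253 (10.7%) as doublets at a score above 0.2. A single score was used because the automatic thresholds differed between sets, at 0.2254, 0.2023, 0.2028 and 0.2503 in sets 1 to 4. Each of these lies above 0.2, so the fixed score was the stricter cut. The other 35586 cells, each scaled to 10000, were clustered with scanpy 1.11.5 and igraph 0.11.9 (2000 variable genes without the 38 members, 30 components, 15 neighbours, resolution 1), and clusters were named from at least 3 markers; 4503 cells stayed unnamed. Of the unnamed cells, 3198 formed a cluster with Ghrhr as its only passing somatotroph marker and medians of 1511 UMIs and 5.51% mitochondrial UMIs. Another 473 formed a cluster with Pomc as its only passing corticotroph marker and a median of 955 UMIs. Neither cluster entered a hormone class. A call needed at least 20 counts over the hormone classes. Ratios are pooled counts of a class over the mean of the other 5 classes, with exact Poisson or Clopper-Pearson 95% intervals (scipy 1.17.1) that cover counting error only. Members called in a class under both library sizes were described in full, up to 4 per class by size of fold. The other members are given by their levels, and some were picked for display after their values were seen. Of each further list, the genes with the highest and lowest ratio in the class described were named among those with at least 200 counts, except 1 that is not reported here. The members and lists were chosen with earlier results of these data known. The calling procedure was tested on simulated data. Alternatives covered the filter, doublets, resolution, class naming, fold, library size, the UMI total of a class and each set. No test between diets was made, because no barcode is tied to a library.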

Additional observations from a re-analysis of the deposited data

How the results depend on the processing

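No paired analysis was possible because the barcodes carry no library name and no replicate number from the labels. The planned edgeR fit of diet was not run, and no DESeq2 fit was made, because no barcode is tied to a diet. Free RNA was not subtracted, because the matrix holds no barcodes of very low UMI counts. Of 630 single-gene alternatives over 35 gene and class pairs, 624 stayed within 1.5 times, 6 moved (Hspb1 in thyrotroph-like and Trib3 in lactotroph-like cells) and 0 reversed. With a fold of 2 in place of 1.5, higher ER folding calls in gonadotroph-like cells were 5 with hormone genes in and 4 without. The shares of all genes were 6.91% and 6.07%. Lower ER folding calls were 3 in somatotroph-like cells with hormone genes in, against 27.8% of genes, so not above the background. In corticotroph-like cells without hormone genes they were 0, against 17.9%. At that fold higher heat shock calls in corticotroph-like cells were 3 and 2, against 8.68% and 6.29%. In somatotroph-like cells without hormone genes the heat shock count was 0 and the UPR and ATF4 count 1, against 7.27%. Changing the library size gave 1 (from 6) lower ER folding calls in somatotroph-like cells and 2 (from 7) in corticotroph-like cells. Heat shock counts became 5 and 9 in corticotroph-like cells and 0 in somatotroph-like cells, where the UPR and ATF4 count became 1. The shares of all genes for both library sizes are given with the main counts above. With doublets kept, corticotroph-like counts without hormone genes were 3 for lower ER folding and 3 for higher heat shock. All genes stood at 21.3% lower, so the ER folding count was near the background, and at 9.67% higher. By marker score the heat shock counts without hormone genes were 3 in corticotroph-like and 0 in somatotroph-like cells, against 10.2% and 10.1% of genes. Leaving out 1 set gave 8 to 9 higher ER folding calls in gonadotroph-like cells with hormone genes in and 6 to 7 without. The shares of all genes were 12.4% to 13.2% and 10.2% to 11%. Lower ER folding calls were 6 to 8 in corticotroph-like cells without hormone genes, against 25.4% to 25.8%. In somatotroph-like cells with hormone genes in they were 6, against 48.4% to 53.6%. Higher heat shock calls in corticotroph-like cells were 5 to 9 with hormone genes in, against 16.6% to 17.2%. Without hormone genes they were 3 to 5, against 11.1% to 11.4%. Somatotroph-like cells without hormone genes had 3 to 5 higher heat shock and 3 to 4 UPR and ATF4 calls, against 12.9% to 13.5%. The summed ER folding ratio in gonadotroph-like cells (1.84 with hormone genes in, 1.65 without) was 1.66 and 1.46 with doublets kept, 1.92 and 1.74 with a stricter cell filter, 1.76 and 1.55 at resolution 0.5, 1.68 and 1.49 by marker score, 1.79 as a mean over cells with hormone genes in, and 1.72 to 1.91 and 1.54 to 1.72 without 1 set. The summed heat shock ratio in corticotroph-like cells (1.95 and 1.61) was 1.80 and 1.53 with doublets kept, 1.88 and 1.48 by marker score, 2.002 and 1.69 as a mean over cells, and 1.70 to 2.03 and 1.38 to 1.68 without 1 set. The cause of these shifts was not tested.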
